A study of Homo sapiens with 18 samples.

Results

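The 6 genes described here, HLA-DRA, CD74, HLA-DRB1, HLA-DPA1, HLA-DMA and HLA-DMB, belong to the MHC class II pathway and were followed in prostate cancer cells with altered FOXA1. They were chosen by their measured values: earlier results on these arrays had shown HLA-DRA and CD74 among the largest differences between FOXA1-depleted, rescued and control cells. All probes that the platform annotation assigns to the 6 genes were taken, which gave 9 of the 30102 probes with 1 gene. These 6 are among 20040 genes with a probe on the array, and 5 of them were among the 11590 genes bright enough to be tested.

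The cells were LNCaP, an androgen-dependent human prostate cancer line obtained from ATCC, according to the labels. FOXA1, a forkhead transcription factor that opens chromatin for other factors, was depleted with a short hairpin and replaced with wild-type or mutant protein. Control cells carried GFP with the vector pGIPZ and no hairpin. Every other group carried the hairpin against FOXA1, together with GFP (knockdown cells), wild-type FOXA1 or one of 6 other forms (L388M, G87R, F266S, M253K, D226N and FENG). The labels do not define FENG, and the name is used as given. All groups were kept for 3 days in 5% charcoal-stripped serum, which lacks most steroid hormone, and then received ethanol or 1 nM of the synthetic androgen R1881 for 24 hours. There were 9 constructs and 2 treatments, with 1 array for each of the 18 conditions. No source says that the arrays came from separate cultures or that each construct was made more than once, so p-values measure the spread between these arrays, which may be technical.

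MHC class II molecules display peptides from endosomes to helper T cells and are made mainly by B cells, dendritic cells, macrophages and thymic epithelium. An alpha and a beta chain (HLA-DRA with HLA-DRB1, HLA-DPA1 with HLA-DPB1) assemble on the invariant chain CD74, which fills the groove until HLA-DM, a dimer of HLA-DMA and HLA-DMB, exchanges its remnant for antigenic peptide. The coactivator CIITA switches the genes on. It is recruited by the RFX complex at the X box and by NF-Y at the Y box of their promoters, and interferon-gamma, acting through JAK kinases and IRF1, induces CIITA in cells that normally lack it.

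The promoter letters of members with exact matches to the core letters of both elements, or of the Y box alone, are shown. These elements are where the factors that act on class II genes bind. RefSeq promoters of GRCh38.p14, covering 250 bases before to 50 bases after the start site, were found for 5 of the 6 members, all but HLA-DRA. The genes lie on chromosome 6 with the other HLA genes, apart from CD74 on chromosome 5. Each sequence is written 5′ to 3′ on the gene's own (minus) strand, and capitals mark the X box core CTGATGATG and the Y box core ATTGG or its reverse complement, without overlap between them.
HLA-DRB1 promoter, chr6:32589870-32589942: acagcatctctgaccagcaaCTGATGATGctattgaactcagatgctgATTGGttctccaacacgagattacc
HLA-DMA promoter, chr6:32953152-32953225: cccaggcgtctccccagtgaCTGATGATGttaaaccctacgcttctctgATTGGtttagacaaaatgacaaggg
HLA-DMB promoter, chr6:32941026-32941131: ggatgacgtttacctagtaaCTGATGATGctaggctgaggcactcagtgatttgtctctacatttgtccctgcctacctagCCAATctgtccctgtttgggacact
CD74 promoter, chr5:150412939-150413023: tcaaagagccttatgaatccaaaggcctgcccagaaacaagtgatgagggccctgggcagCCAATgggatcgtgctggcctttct
In HLA-DRB1 and HLA-DMA the X core was followed by a Y core after 19 and 20 bases. In HLA-DMB the only exact Y core match came after 52 bases, as the reverse complement. Whether it pairs with the X core there was not tested. The X core was chosen after these promoters had been read. It was present, on either strand, in 0.271% of 35116 RefSeq promoters of this length, the Y core in 34.6% and both in 0.111%. CD74 had the Y core alone, and neither of the 2 promoter entries of HLA-DPA1 held either string. The forkhead core TGTTTAC, present in 3.42% of promoters, was in none of these member windows. Matches of letters describe these windows and were not tested as binding sites.

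The arrays had a mean raw signal of 233.1 to 303.9, and 15855 to 17278 of 47303 probes were detected, meaning a detection p-value under 0.01. Values below are log2 intensities after background correction, an added offset of 16 and quantile normalisation, so 1 unit is a doubling of the offset signal and folds of dim genes are understated. FOXA1 itself was 1.64-fold lower in knockdown than in control cells (log2 difference -0.71 ± 0.12 SE, limma adjusted p = 0.00287) and was not higher with wild-type FOXA1 put back (-0.35 ± 0.12, adjusted p = 0.164). Whether this probe reads the inserted copies is not known. Earlier work on these data found that the M253K ethanol, FENG R1881 and G87R ethanol arrays share a deviation. Without these 3 arrays M253K, FENG and G87R rest on 1 array each. HLA-DRA and CD74 then kept their direction in each contrast between mutants. No member passed for R1881 with or without them. The genes of luminal prostate cells were present: HOXB13, FOLH1, TMPRSS2, STEAP2 and KRT8 were detected on all 18 arrays and KLK3, which encodes prostate-specific antigen, on 17.

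HLA-DRB1, the principal beta chain of HLA-DR, was not detected on any array. Its 1 probe read between 4.24 and 4.77, and the lowest detection p-value was 0.0182, in FENG cells with R1881. HLA-DMA and HLA-DMB were detected on all 18 arrays and HLA-DRA on 17, the exception being control cells in ethanol. CD74 was detected on 15 arrays, with both control arrays and G87R with R1881 missing. HLA-DPA1 was detected on 9 arrays: both arrays of knockdown, M253K, FENG and F266S cells, and D226N in ethanol. It passed the detection filter through the constructs in which it is high.

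HLA-DRA encodes the nearly invariant alpha chain of HLA-DR. In ethanol its log2 intensity was 4.74 in control, 10.65 in knockdown, 6.28 in wild-type, 6.26 in G87R, 7.42 in L388M, 8.63 in D226N, 9.44 in F266S, 9.56 in FENG and 10.38 in M253K cells. The R1881 arrays gave 5.12, 10.46, 6.33, 6.01, 7.19, 8.33, 9.18, 9.79 and 9.77 for these constructs, taken in this order. Control cells were lowest and knockdown cells highest, and of the 8 neighbouring pairs in the order of construct means only M253K and FENG had overlapping arrays. The second HLA-DRA probe, detected on all arrays, kept control lowest (6.29 and 6.57) and knockdown highest (9.74 and 9.72) but spanned a smaller range.

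CD74, the invariant chain, took the constructs in the same order as HLA-DRA. In ethanol it read 4.46 in control, 8.11 in knockdown, 5.05 in wild-type, 4.97 in G87R, 5.57 in L388M, 6.21 in D226N, 6.67 in F266S, 7.04 in FENG and 8.14 in M253K cells. With R1881 it read 4.21, 8.13, 4.97, 4.52, 5.35, 5.78, 6.62, 7.45 and 7.29. Knockdown and M253K arrays overlapped, as did M253K and FENG, and wild type and G87R. Of its other probes, the second was detected on 10 arrays, all in knockdown, D226N, M253K, FENG and F266S cells, and the third on 1 array.

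HLA-DPA1, the alpha chain of HLA-DP, was brightest in knockdown cells, at 6.53 in ethanol and 6.32 with R1881. It read 6.06 and 5.96 in M253K, 5.87 and 5.39 in F266S, 5.68 and 5.56 in FENG, and 5.15 and 4.76 in D226N cells. In control, wild-type, G87R and L388M cells none of the 8 arrays was above background, with values from 4.27 to 4.75. F266S and FENG overlapped, and the neighbouring means among undetected constructs carry no order.

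**Figure D1:**
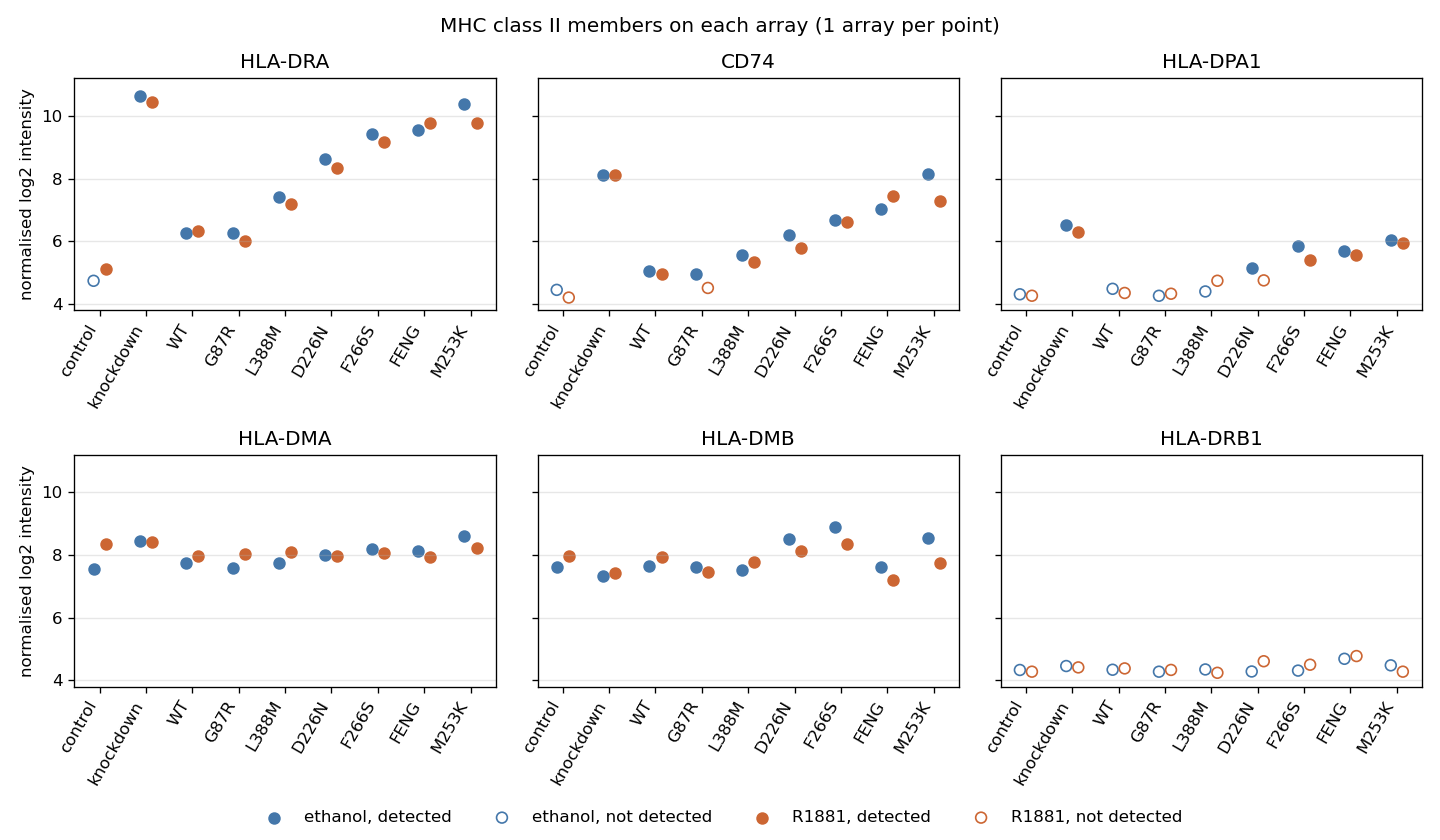
Normalised log2 intensity of the 6 members (vertical axis) in each construct (horizontal axis). Each point is 1 array, blue for ethanol and orange for R1881, open where the probe was not detected. HLA-DRA and CD74 are lowest in control and rise from L388M through D226N and F266S to FENG and M253K, with knockdown at or near the top. HLA-DMA spans 7.55 to 8.59, HLA-DMB peaks in F266S, and all HLA-DRB1 points are open.

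The HLA-DM subunits varied far less. HLA-DMA ranged from 7.55 to 8.59 over the 18 arrays, and the construct means ran from 7.80 in G87R to 8.43 in knockdown cells. Its arrays overlapped between 7 of the 8 neighbouring constructs, and the gap between M253K and F266S was the exception. HLA-DMB, the partner of HLA-DMA, had another order. It was highest in F266S (8.89 in ethanol, 8.35 with R1881), D226N (8.52 and 8.12) and M253K (8.55 and 7.75), and lowest in knockdown (7.34 and 7.42) and FENG cells (7.62 and 7.20). All neighbouring constructs overlapped for HLA-DMB. Over the 18 arrays HLA-DRA correlated with CD74 (Pearson r = 0.975) and HLA-DPA1 (r = 0.94), less with HLA-DMA (r = 0.64) and hardly with HLA-DMB (r = 0.15). These are descriptions over arrays that share 9 constructs.

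The knockdown and rescue differences of the members are the ones they were chosen by and are given without a test. HLA-DRA was 5.62 ± 0.20 (SE, 2 arrays against 2) log2 units higher in knockdown than in control cells. CD74 had no detected control array and was higher by at least 9.72-fold, and HLA-DPA1, likewise undetected, at least 2.99-fold higher. These bounds set the brighter mean against the lowest detected level of each control array. HLA-DMA differed by 0.47 ± 0.23 and HLA-DMB by -0.40 ± 0.25. The HLA-DMA difference was 0.09 without control ethanol and 0.86 without control R1881, as its control values were 7.55 and 8.36. The sizes depend on the setting. With an offset of 50 the differences were 4.57 for HLA-DRA, 2.53 for CD74 and 1.16 for HLA-DPA1 on the log2 scale, the last 2 below the bounds above, which hold for an offset of 16. With the mean of kept probes they were 4.46 for HLA-DRA and 3.20 for CD74. Among all genes tested, 4.56% were called higher and 3.74% lower in knockdown cells.

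With wild-type FOXA1 put back, HLA-DRA was 4.25 ± 0.20 log2 units below its knockdown level, which left it 1.37 ± 0.20 above control. CD74 was 3.11 ± 0.22 below the knockdown level and HLA-DPA1 at least 3.02-fold below it. With an offset of 50 the differences of these 3 were -3.76, -2.24 and -1.11. HLA-DMA was 0.59 ± 0.23 lower and HLA-DMB 0.41 ± 0.25 higher. Across all genes, 2.03% were called higher and 2.6% lower on rescue. For HLA-DRA, G87R differed from wild type by -0.17 ± 0.20. L388M stood 1.00 above wild type, D226N 2.18, F266S 3.00, FENG 3.37 and M253K 3.77, each with a standard error of 0.20 and no test. M253K was 0.48 ± 0.20 below the knockdown level.

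The contrasts between mutants use no control, knockdown or wild-type array for their means, and members were tested in them. Because the order of the constructs was known when the members were chosen, these tests are not independent of that choice in full. Their standard errors and p-values come from the spread left after construct and treatment. Differences between constructs of a class do not enter that spread. The tests therefore speak for these constructs and not for forkhead mutants in general. D226N, M253K and F266S carry changes within the forkhead, the DNA-binding domain, and G87R and L388M outside it. HLA-DRA read 8.33 to 10.38 on the 6 arrays of the first class and 6.01 to 7.42 on the 4 arrays of the second, which did not overlap. The mean difference was 2.57 ± 0.13 log2 units, a 5.94-fold higher signal (limma adjusted p = 5.27e-08). CD74 read 5.78 to 8.14 against 4.52 to 5.57, also without overlap, and was 3.22-fold higher (1.69 ± 0.14, limma adjusted p = 6.93e-06). HLA-DPA1 was undetected on all 4 arrays of the second class and at least 1.58-fold higher in the first (adjusted p = 2.96e-05). The 2 knockdown arrays, which are in neither class, were enough for it to pass the detection filter, yet all its detected arrays are in constructs where it is high, so it is not counted as support here or for FENG.

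HLA-DMB rose in the same contrast by 0.77 ± 0.16 (limma adjusted p = 0.00812), with 1 forkhead-mutant array, M253K with R1881, inside the range of the second class. This call was lost without L388M ethanol (adjusted p = 0.0533). HLA-DMA was 0.32 ± 0.15 higher and did not pass (adjusted p = 0.198). Of all genes, 7.19% were called higher and 5.52% lower in this contrast. Both kept probes of HLA-DRA (2.57 and 1.51) and of CD74 (1.69 and 1.40) passed when tested one by one.

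FENG cells also stood above G87R and L388M for HLA-DRA, CD74 and HLA-DPA1. HLA-DRA was 7.76-fold higher (2.96 ± 0.17, limma adjusted p = 4.31e-07) and CD74 4.42-fold (2.14 ± 0.19, adjusted p = 1.88e-05), and HLA-DPA1 at least 1.68-fold (adjusted p = 3.35e-04). HLA-DMA (0.18 ± 0.20, adjusted p = 0.698) and HLA-DMB (-0.18 ± 0.22, adjusted p = 0.735) did not pass. Of all genes, 4.21% were called higher. FENG was compared with the same 4 arrays as the class above, and whether HLA-DMB differs between FENG and the forkhead mutants was not tested.

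Among the forkhead mutants, D226N was lowest for HLA-DRA, CD74 and HLA-DPA1, though not for HLA-DMB. HLA-DRA was 1.21 ± 0.17 log2 units higher in M253K and F266S than in D226N (limma adjusted p = 0.00293), CD74 1.18 ± 0.19 (adjusted p = 0.00782) and HLA-DPA1 0.86 ± 0.15 (adjusted p = 0.0111). When probes were tested one by one, the second HLA-DRA probe passed (0.92 ± 0.12, limma adjusted p = 0.00256). The second CD74 probe did not (1.14 ± 0.28, limma adjusted p = 0.0766). HLA-DMA (0.28 ± 0.20, adjusted p = 0.571) and HLA-DMB (0.07 ± 0.22, adjusted p = 0.906) did not pass. Of all genes, 1.5% were called higher. HLA-DPA1 is not counted as support here either, because all its detected arrays are in constructs where it is high. The HLA-DRA and CD74 calls, and that of HLA-DPA1, were lost without either D226N array, when D226N rests on 1 array. The differences were then 1.31 for HLA-DRA and 1.30 for CD74 without D226N ethanol. Without D226N R1881 they were 1.11 and 1.07. With median scaling HLA-DPA1 no longer passed (0.80, adjusted p = 0.0594).

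Between the mutants outside the forkhead, L388M exceeded G87R on both arrays for HLA-DRA (7.19 and 7.42 against 6.01 and 6.26). The difference of 1.17 ± 0.20 did not pass (limma adjusted p = 0.129), and passed at 0.0440 when either M253K array was left out. CD74 differed by 0.72 ± 0.22 (adjusted p = 0.999). No member passed, and 0.00863% of all genes did, which is 1 gene.

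**Figure D2:**
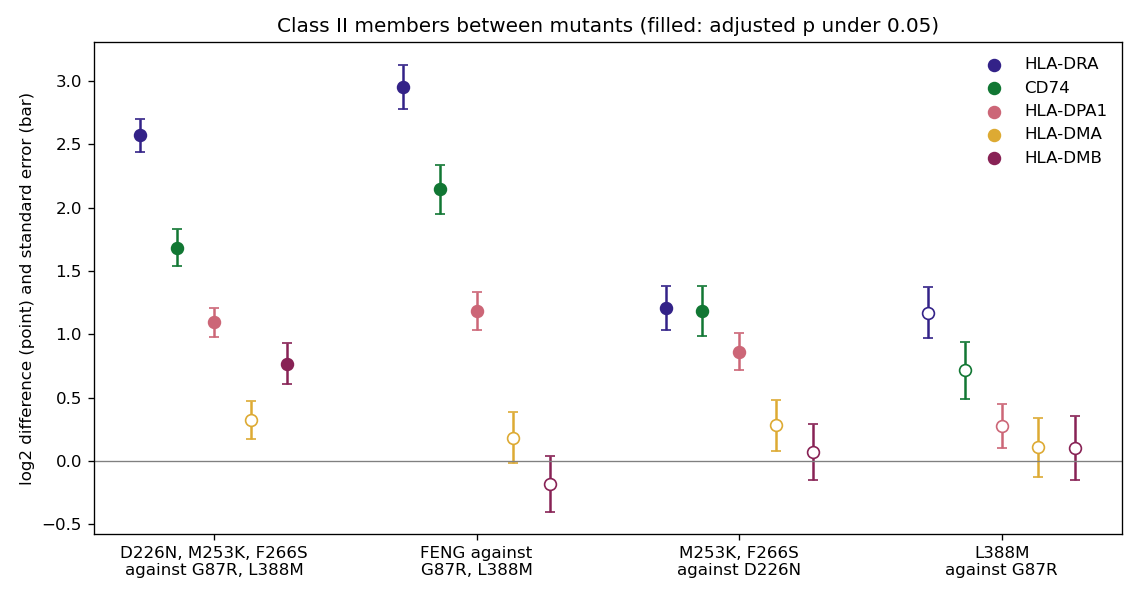
Log2 difference (point) and standard error (bar) of the 5 tested members in the 4 contrasts between mutants. Filled points have a limma adjusted p under 0.05. HLA-DRA, CD74 and HLA-DPA1 are filled in the first 3 contrasts, HLA-DMB in the first alone, and none in the last.

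No member passed the test for R1881. The difference over the 9 constructs was -0.13 ± 0.09 for HLA-DRA (limma adjusted p = 0.425), -0.21 ± 0.11 for CD74 (0.238), -0.12 ± 0.08 for HLA-DPA1 (0.406), 0.12 ± 0.11 for HLA-DMA (0.558) and -0.16 ± 0.12 for HLA-DMB (0.471). Among all genes, 5.86% were called higher and 7.57% lower with R1881, and KLK3 rose by 1.52 ± 0.10 (adjusted p = 1.05e-06). HLA-DRA was lower with R1881 in 6 of 9 constructs and CD74 in 7. The largest decrease of each was in M253K cells (-0.60 and -0.85), and the largest increase of CD74 was in FENG cells (0.40). Both involve an array named above as deviating.

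Whether the response to R1881 differed with the class of FOXA1 was tested on the differences between paired arrays. HLA-DMA was higher with R1881 in wild-type (0.22), G87R (0.45) and L388M cells (0.35), and in control cells (0.80). It was lower in D226N (-0.02), M253K (-0.37) and F266S cells (-0.12). Set against wild type, L388M and G87R together, the response of the forkhead mutants differed by -0.51 ± 0.17 for HLA-DMA (unadjusted p = 0.0140 in the limma fit) and -0.69 ± 0.19 for HLA-DMB (unadjusted p = 0.00618). For HLA-DRA it was -0.25 ± 0.17, for CD74 -0.19 ± 0.22 and for HLA-DPA1 -0.41 ± 0.19. All adjusted p-values were 1.00 and 0% of all genes were called by limma, while 400 of 11590 had an unadjusted p under 0.05.

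**Figure D3:**
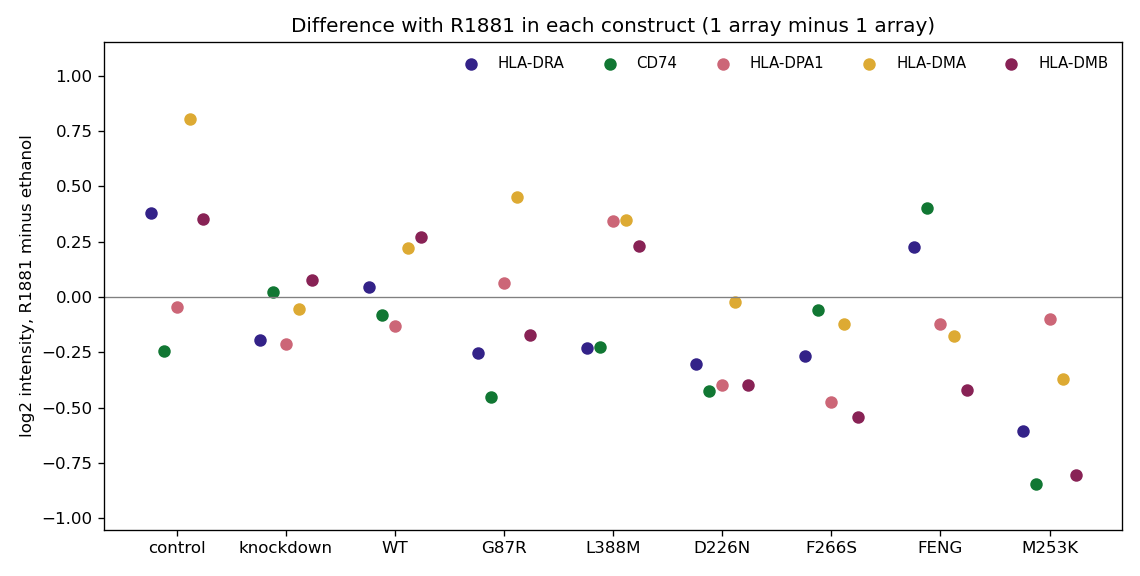
Log2 intensity with R1881 minus that with ethanol for each member (colour) in each construct, 1 array minus 1 array. Points lie on both sides of 0 for every member, HLA-DMA (yellow) reaches 0.80 in control cells, and all members are below 0 in D226N, F266S and M253K.

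Of 11 other class II genes, 9 had a probe and 3 passed the detection filter, all of them HLA-DRB genes or pseudogenes. This list and those below were drawn up with earlier results of these data known. Their tests in knockdown and on rescue are therefore not independent of that knowledge. HLA-DRB4, a second beta chain gene, rose by 3.07 ± 0.37 in knockdown cells (limma adjusted p = 1.68e-04) and fell by 2.70 ± 0.37 on rescue (adjusted p = 8.42e-04). The pseudogene HLA-DRB6 rose by 2.25 ± 0.12 (adjusted p = 1.26e-07) and fell by 1.97 ± 0.12 (adjusted p = 1.25e-06). HLA-DRB6 was undetected on both control and both wild-type arrays, so these sizes are set against background and no bound was computed. Of the control, wild-type, G87R and L388M arrays, only L388M in ethanol detected it. HLA-DRB3, detected on all 18 arrays, did not pass in knockdown cells (0.60 ± 0.18, limma adjusted p = 0.0570) or on rescue (-0.49 ± 0.18, adjusted p = 0.170). All 3 were higher in the forkhead mutants than in G87R and L388M: HLA-DRB4 by 0.99 ± 0.24, HLA-DRB6 by 0.90 ± 0.08 and HLA-DRB3 by 0.38 ± 0.11 (adjusted p = 0.0447). HLA-DRB4 in M253K cells read 5.89 in ethanol and 7.39 with R1881, while HLA-DRA read 10.38 and 9.77. These genes are so alike in sequence that RNA of one can bind another's probe, and the family member behind each HLA-DRB value is uncertain. HLA-DQA2, HLA-DPB1 and HLA-DOA were undetected on all arrays, and HLA-DRB5, HLA-DQB1 and HLA-DOB were detected on 1 each. The annotation gave no probe for HLA-DQA1 or HLA-DQB2.

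CIITA was undetected on all 18 arrays (4.22 to 4.84), its lowest detection p-value being 0.0195 in M253K cells in ethanol. RFX5 (9.32 to 9.90), RFXANK (7.42 to 8.27) and RFXAP (5.97 to 6.70), the subunits of the RFX complex, were detected on all arrays. None of the 7 factors tested was called in knockdown, on rescue or between the mutant classes. In knockdown cells RFX5 differed by -0.21 ± 0.13 (limma adjusted p = 0.441), RFXANK by -0.47 ± 0.16 (adjusted p = 0.108) and RFXAP by 0.34 ± 0.23 (adjusted p = 0.489). RFX5 fell by 0.23 ± 0.06 with R1881 (adjusted p = 0.0259).

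The interferon-gamma pathway was read through its signalling genes and its targets. IFNGR1, the ligand-binding receptor chain, read 8.83 in control, 10.73 in knockdown, 9.34 in wild-type, 9.34 in G87R, 9.67 in L388M, 10.78 in D226N, 11.12 in F266S, 11.14 in FENG and 11.89 in M253K cells in ethanol. It rose by 2.12 ± 0.15 in knockdown cells (limma adjusted p = 1.51e-06), fell by 1.53 ± 0.15 on rescue (5.33e-05) and was 1.71 ± 0.10 higher in the forkhead mutants than in G87R and L388M (1.47e-07). IRF1, a transcription factor that drives CIITA, rose by 0.91 ± 0.19 in knockdown cells (adjusted p = 0.00860) and was 1.42 ± 0.12 higher in the forkhead mutants (6.35e-06). IRF1 fell by 0.58 ± 0.09 with R1881 (adjusted p = 7.34e-04). IFNG was undetected on all arrays and JAK1 was detected on 3. Of the 5 signalling genes tested, 2 rose in knockdown cells and 2 in the forkhead mutants, these same IFNGR1 and IRF1. Among all genes, 4.56% were called higher in knockdown cells and 7.19% in the forkhead mutants. Counts among 5 genes are too small to be read as a change of the list.

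Among 18 interferon-gamma targets, 13 were tested, and 8 were higher and 0 lower in the forkhead mutants than in G87R and L388M. Of all genes, 7.19% were called higher and 5.52% lower. Of these 8 targets, GBP1 was detected on 11 arrays, CXCL11 and PSMB8 on 10 each and GBP4 on 5. GBP2, a guanylate-binding GTPase, was 2.29 ± 0.08 higher (limma adjusted p = 3.32e-09) and GBP1 1.23 ± 0.10 (3.57e-06). The immunoproteasome subunits PSMB8 (0.90 ± 0.13) and PSMB10 (0.73 ± 0.09) and the peptide transporter TAP1 (0.72 ± 0.08) were also higher. The median of the 13 was 0.59. In knockdown cells 5 of the 13 rose, against 4.56% of all genes: GBP2 (1.84), CXCL10 (1.19), GBP1 (1.09), CXCL11 (0.92) and PSMB10 (0.59). On rescue 4 targets fell, PSMB10 not among them, and 2.6% of all genes were called lower. GBP2 was brightest in M253K cells (10.80 and 10.28), above knockdown cells (9.31 and 8.92), whereas HLA-DRA was brightest in knockdown cells. CXCL9, IDO1, NLRC5 and APOL1 were undetected on all arrays.

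**Figure D4:**
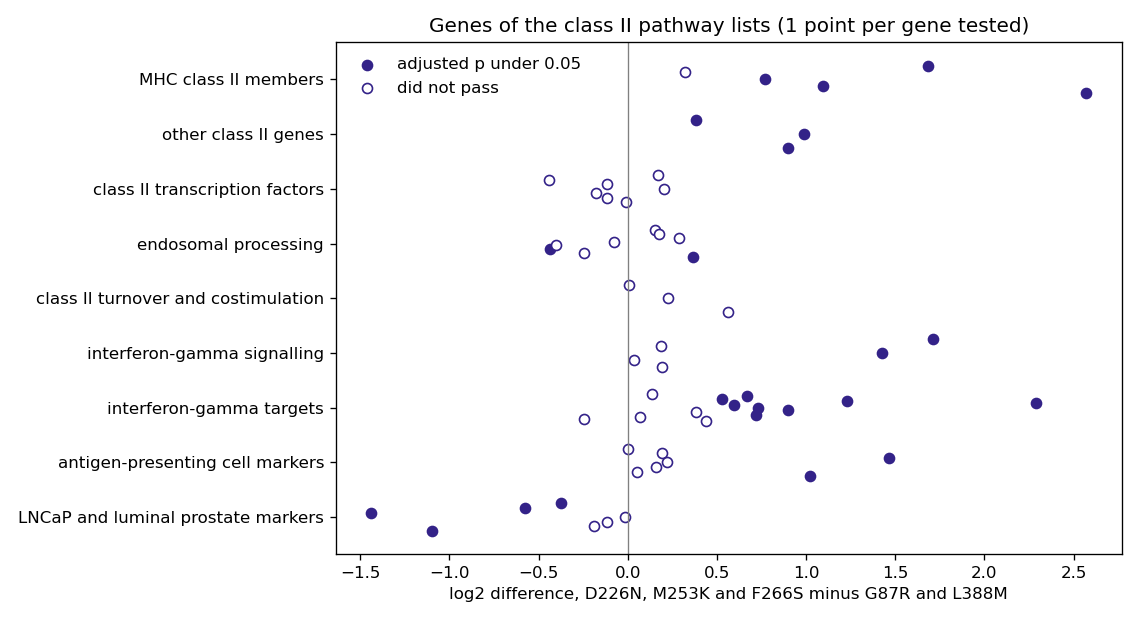
Log2 difference between forkhead mutants and the G87R and L388M pair (horizontal axis) for each gene tested in 9 lists. Filled points have a limma adjusted p under 0.05. The members and the other class II genes lie to the right. Filled to the right are 8 of 13 interferon-gamma targets, and 0 of 7 class II transcription factors is filled. Of all genes, 7.19% were called higher in this contrast.

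Of 8 tested endosomal genes that prepare peptides for class II, 2 were called between the mutant classes, 2 in knockdown cells and 2 with R1881. Of all genes, 7.19% were called higher and 5.52% lower between the classes, and 4.56% and 3.74% in knockdown cells. With R1881 the shares were 5.86% and 7.57%. Counts among 8 genes are too small to be read as a change of the list. SPPL2A, a protease that clears the CD74 fragment, rose by 0.37 ± 0.08 in the forkhead mutants (limma adjusted p = 0.00766) and CTSV, a cathepsin, fell by 0.44 ± 0.08 (0.00432). CTSL rose by 0.86 ± 0.20 in knockdown cells (adjusted p = 0.0188) and CTSV fell by 0.71 ± 0.13 (0.00415). With R1881, CTSL fell by 0.60 ± 0.09 (9.46e-04) and CTSH by 0.43 ± 0.09 (0.00891). CTSS, the cathepsin that trims CD74 in antigen-presenting cells, and IFI30, a lysosomal thiol reductase, were undetected on all arrays. None of the 3 turnover and costimulation genes tested was called in these comparisons. CD40 and CD274 were undetected on all arrays.

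Of 16 markers of professional antigen-presenting cells with a probe, 8 were undetected on all arrays. PTPRC, the pan-leukocyte CD45, was among them, with CSF1R, ITGAX, TYROBP, FCER1G, LAPTM5, LYZ and CD1C. FCGR3A was detected on 15 arrays, AIF1 on 13, ITGAM on 10, CD14 and CD79B on 9 each, CD79A on 3 and MS4A1 on 1. Of 17 markers 7 were tested, and CD68, a lysosomal glycoprotein of macrophages, rose by 2.51 ± 0.21 in knockdown cells (limma adjusted p = 5.35e-06). CD68 fell by 1.92 ± 0.21 on rescue (1.14e-04), was 1.47 ± 0.13 higher in the forkhead mutants (1.08e-05) and read 6.59 in control against 9.81 in M253K cells in ethanol. ITGAM was 1.02 ± 0.20 higher in the forkhead mutants (0.00440). The summed linear intensity of the 7 markers was 152 to 215 in control, 672 to 822 in knockdown and 1047 to 1112 in M253K cells. Without CD68 it was 72.0 to 83.3 in control, 74.2 to 88.8 in knockdown and 116 to 163 in M253K cells. In bulk RNA a few cells of another type and a low level in every cell cannot be told apart.

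Of the 7 tested luminal prostate genes, 4 moved against the members between the mutant classes, where 5.52% of all genes were called lower. STEAP2 (-0.19 ± 0.11), KRT8 (-0.12 ± 0.22) and KRT18 (-0.01 ± 0.57) did not pass. KLK3 was 1.44 ± 0.14 lower in the forkhead mutants than in G87R and L388M (limma adjusted p = 1.72e-05), TMPRSS2 1.10 ± 0.18 (0.00128), HOXB13 0.58 ± 0.12 (0.00577) and FOLH1 0.37 ± 0.10 (0.0229). In knockdown cells 0 of the 7 tested luminal genes were called.

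The genes whose levels over the 18 arrays were most like HLA-DRA, among the 11590 tested, were CD74 (Pearson r = 0.975), PI3 (0.975), MMP7 (0.974), CFB (0.973), CCL8 (0.972) and ANXA1 (0.968). PI3 encodes the protease inhibitor elafin, MMP7 the metalloprotease matrilysin, CFB complement factor B, CCL8 a chemokine and ANXA1 annexin A1. The genes outside the members most like CD74 were ANXA1 (r = 0.984), HLA-DRB6 (0.979), TMEM9B (0.977), CHI3L2 (0.975) and CCL8 (0.966). HLA-DPA1 ranked 27 for likeness to HLA-DRA and 9 for likeness to CD74. All these values share the same arrays and constructs.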

How the data were processed

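Total RNA was biotin-labelled and hybridised to Illumina HumanHT-12 V4 arrays. Per the file headers, the authors' table gives every probe an intensity and a detection p-value on each array. The submitters' processing notes name GenomeStudio, without a version. Processed intensity values deposited in another table, made by steps not stated in any source used here, were also read. They served as an alternative.

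In R 4.3.3 with limma 3.58.1, intensities were background corrected from the detection p-values (neqc, offset 16), quantile normalised and put on log2. Probes with a detection p-value under 0.01 on at least 2 arrays were kept, and the brightest kept probe stood for a gene (11590 genes). Symbols came from the platform annotation, updated through the GRCh38.p14 gene table. An additive limma fit (construct and treatment, 18 arrays, 8 residual degrees of freedom) gave all comparisons. Its residual, the unequal response of constructs to R1881, stood in for replicates. Differences in level between constructs of a class do not enter it. The response difference was fitted on 6 constructs (4 degrees of freedom). Benjamini-Hochberg adjustment ran over all 11590 genes with a threshold of 0.05, and ± gives the standard error. Where all arrays of a group were undetected for a member, the fold is a bound. No bounds were computed for other genes. The fit was tested on simulated data. Precision is limited by the number of arrays.

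The members and gene lists were chosen with earlier results of these data known, so members carry no test in knockdown and rescue contrasts. Other list genes do carry one there, and it is not independent of that knowledge. Named are all members, list genes that passed (up to 6 per list and comparison), genes that define a list, genes undetected throughout, and the 5 non-members most like HLA-DRA and CD74. Alternatives were median scaling, the authors' table, other filters and offsets, the mean of probes, a trended robust prior, and fits without single arrays or the 3 deviating ones. No source used here gives slides or scan dates. Some genes of the lists are not reported here.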

Additional observations from a re-analysis of the deposited data

Results flagged for a closer look

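HLA-DMA was higher with R1881 in wild-type, G87R and L388M cells (0.22, 0.45 and 0.35 log2 units) and lower in D226N, M253K and F266S cells (-0.02, -0.37 and -0.12). It is given here because the response ran in opposite directions in all 3 constructs of each class. The difference of -0.51 ± 0.17 did not pass (limma adjusted p = 1.00), and the D226N value is close to 0.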

How the results depend on the processing

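Of 448 values recomputed under 9 settings other than leaving out single arrays, 413 counted as unchanged. Tested differences had to keep their direction and their side of the threshold, and untested ones to stay within the spread. Counts had to stay within 1.5-fold, so a count of members could lose a call and still be unchanged. With median scaling the numbers of genes called were 941 (R1881), 533 (knockdown), 326 (rescue), 771 (forkhead mutants against G87R and L388M), 372 (FENG), 94 (M253K and F266S against D226N), 0 (L388M against G87R) and 4 (response difference), against 1556, 962, 536, 1473, 773, 225, 1 and 0. Median scaling moved the share of higher calls from 56.6% to 74.2% for the forkhead mutants, from 63.1% to 79.3% for FENG and from 77.3% to 60.6% for M253K and F266S against D226N. On rescue it went from 43.8% to 53.7%, which turned the balance. It also moved the median of all genes to -0.11 in knockdown, 0.17 on rescue and -0.16 for L388M against G87R. Without the 3 deviating arrays 1800, 1029, 469 and 2 genes were called in knockdown, on rescue, in FENG and in L388M. L388M against G87R gave 3 genes with a detection filter of 9 arrays, 3 with offset 50 and 5 with a trended robust prior. At a detection p-value under 0.05 HLA-DRB1 was detected on 3 arrays. The span of HLA-DPA1 was 2.32 in the authors' table. Small values that had not passed changed sign: HLA-DMB (-0.0324 and -0.132) in M253K and F266S against D226N and 0.0693 in FENG, HLA-DMA (-0.0885 and -0.0208) and HLA-DMB (-0.0835) in L388M against G87R, under median scaling or without the 3 arrays. Leaving out 1 array at a time gave 1185 to 1910 genes for R1881, 459 to 1324 in knockdown (lowest without knockdown R1881), 207 to 751 on rescue (without wild-type R1881), 845 to 2117 for the forkhead mutants (without L388M R1881), 347 to 1122 for FENG (without FENG R1881), 28 to 1392 for M253K and F266S against D226N (without D226N ethanol), 1 to 5 for L388M and 0 to 1 for the response difference. The member calls that changed in these fits are given above with their contrasts. HLA-DMB ran from -0.11 to 0.25 in M253K and F266S against D226N and from -0.12 to 0.32 in L388M against G87R, where HLA-DMA ran from -0.0794 to 0.29. The CD74 response difference ran from -0.38 to 0.0120. The causes were not tested. Construct is a term of the fit, so the treatments are already paired within constructs, and the replicate numbers, all 1, give no further pairing.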

Other observations

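The M253K arrays disagreed more than those of most constructs for some class II genes. HLA-DRB4 was 5.89 in ethanol and 7.39 with R1881, while the second CD74 probe ran the other way, at 7.30 and 6.12. HLA-DMB was 8.55 and 7.75. The M253K ethanol array also had the fewest detected probes of all arrays, 15855, and its part in these values was not tested.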
